A study of Mus musculus with 17 samples.

Results

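The 10 genes described here are chemokines that act on neutrophils, receptors that bind them and the growth factor Csf3. They were listed by name, with earlier results of these data known. The list holds the ligands Cxcl1, Cxcl2, Cxcl3, Cxcl5, Cxcl15 and Cxcl12, the receptors Cxcr2, Cxcr4 and Ackr3, and Csf3. They are 10 of the 54146 genes in the files, and all 10 were found by symbol and matched by gene ID in the 17 libraries. Bulk RNA of whole mouse lung was sequenced in 4 groups that shared the strain label FVB/6DT1. Wild-type (WT) mice were 6 weeks old at day 0 (4 libraries) and 8 weeks old at day 14 (6 libraries). Clic4 knockout (Clic4 KO) mice had the same ages at day 0 (2 libraries) and at day 14 (5 libraries). The library titles call the day 0 libraries Control and the day 14 libraries 14 Days. Day, age and this title label moved together and cannot be told apart. The 6DT1 in the label names a mammary tumour line of the mouse. No treatment between day 0 and day 14 is given in the labels used here. The labels do not tie libraries to animals, so the p-values measure only how far these samples spread, and that spread may be technical. The series' design text gives other group sizes than the sample labels, which were followed. Libraries are numbered within a group in the order of the deposit, and the numbers pair nothing between groups.

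Neutrophils enter tissue along gradients of CXC chemokines of the ELR class, named for a short motif before the first cysteines. Cxcl1, Cxcl2, Cxcl3 and Cxcl5 are such ligands, and their receptor on mouse neutrophils is Cxcr2. Cxcl15, also called lungkine, is an ELR chemokine made by the lung epithelium. Cxcl12 acts through Cxcr4, which holds neutrophils in the bone marrow, and it is also bound and removed by the scavenging receptor Ackr3. Csf3 encodes G-CSF, which drives neutrophil production and release.

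The libraries held 20607811 to 35743830 counts. The targeted gene Clic4 lay between 301.5 and 399.1 CPM (counts scaled to a common library size after TMM normalization) in the 7 KO libraries and between 924.7 and 1281 CPM in the 10 WT libraries, with no overlap. The tissue label was met: the summed level of 12 alveolar type 2 genes was 20400 to 30000 CPM in every library. Of all genes, 19557 had enough counts to be tested, among them 9 of the 10 genes described here. Csf3 was not tested.

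The promoters of the ligands are shown first, because the 3 inducible ligands compared below share a short run of bases there. The 5 ELR ligands described here lie in 1 cluster on the plus strand of chromosome 5, in the order Cxcl5, Cxcl3, Cxcl15, Cxcl1 and Cxcl2, over 146.6 kb (GRCm38, chr5:90759360-90905938). Other chemokine genes lie among them: Ppbp, also of the ELR class, and Pf4 stand between Cxcl5 and Cxcl3. RefSeq promoter windows (GRCm38.p6) were found for 8 of the 10 genes, not for Cxcl5 and Csf3. Each line gives the 120 bases before the annotated start, taking the more upstream of the RefSeq and GENCODE starts. Capitals mark GGGAATTTCCC, the longest run that the windows of Cxcl1, Cxcl2 and Cxcl3 have in common and a sequence of the type bound by NF-kB. They also mark TATAAA or its variant CATAAA, sequences of the TATA box type, on the gene's strand. The windows are chr5:90891121-90891240 for Cxcl1, chr5:90903751-90903870 for Cxcl2, chr5:90785981-90786100 for Cxcl3 and chr5:90794414-90794533 for Cxcl15.
Cxcl1: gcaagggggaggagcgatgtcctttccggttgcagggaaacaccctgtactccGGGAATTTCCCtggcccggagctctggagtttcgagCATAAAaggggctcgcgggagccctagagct
Cxcl2: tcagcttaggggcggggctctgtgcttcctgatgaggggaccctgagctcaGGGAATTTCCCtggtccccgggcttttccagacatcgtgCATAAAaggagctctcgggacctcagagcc
Cxcl3: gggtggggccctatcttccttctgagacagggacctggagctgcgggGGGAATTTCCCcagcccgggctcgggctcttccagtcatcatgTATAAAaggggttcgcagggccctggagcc
Cxcl15: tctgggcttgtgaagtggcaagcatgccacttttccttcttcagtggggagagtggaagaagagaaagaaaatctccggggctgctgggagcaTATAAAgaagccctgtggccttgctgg

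GGGAATTTCCC began 67 bases before the start of Cxcl1, 69 before Cxcl2 and 73 before Cxcl3. In each of the 3 genes a TATA-type sequence followed, 31, 30 and 30 bases before the start. Cxcl15, which lies between Cxcl3 and Cxcl1, had TATAAA 27 bases before its start and no match to the shared run. Searched on both strands in the 250 bases before the RefSeq start, GGGAATTTCCC was found in 14 of 32851 promoters (0.0426%). It was taken from Cxcl1, Cxcl2 and Cxcl3, so its presence there is no finding, and it was not found in Cxcl15, Cxcl12, Cxcr2, Cxcr4 and Ackr3. TATAAA stood in 12.4% of all windows on either strand and CATAAA in 10.8%. All 3 motifs were chosen after the windows had been read. A match describes letters only, and no binding was measured here.

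Levels of different genes were compared per length, as the authors' FPKM (fragments per kilobase of transcript, scaled to library size). Cxcl15 had the highest mean over the 17 libraries at 442 FPKM, followed by Cxcl12 at 83.6 FPKM, Cxcr4 at 40.9 FPKM and Ackr3 at 23 FPKM. Cxcr2 averaged 5.94 FPKM, Cxcl1 2.43 FPKM, Cxcl2 1.8 FPKM, Cxcl3 0.567 FPKM, Cxcl5 0.224 FPKM and Csf3 0.0376 FPKM. The first 5 genes kept this order in each of the 17 libraries. Below them the order was looser: Cxcr2 exceeded Cxcl1 in 12 libraries, and Cxcl1 exceeded Cxcl2 in 11. Cxcl15 made up 97.7 to 99.5% of the summed FPKM of these 5 ELR ligands in every library. The sum of the other 4 ligands was 1.72 to 8.38 FPKM.

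**Figure D1:**
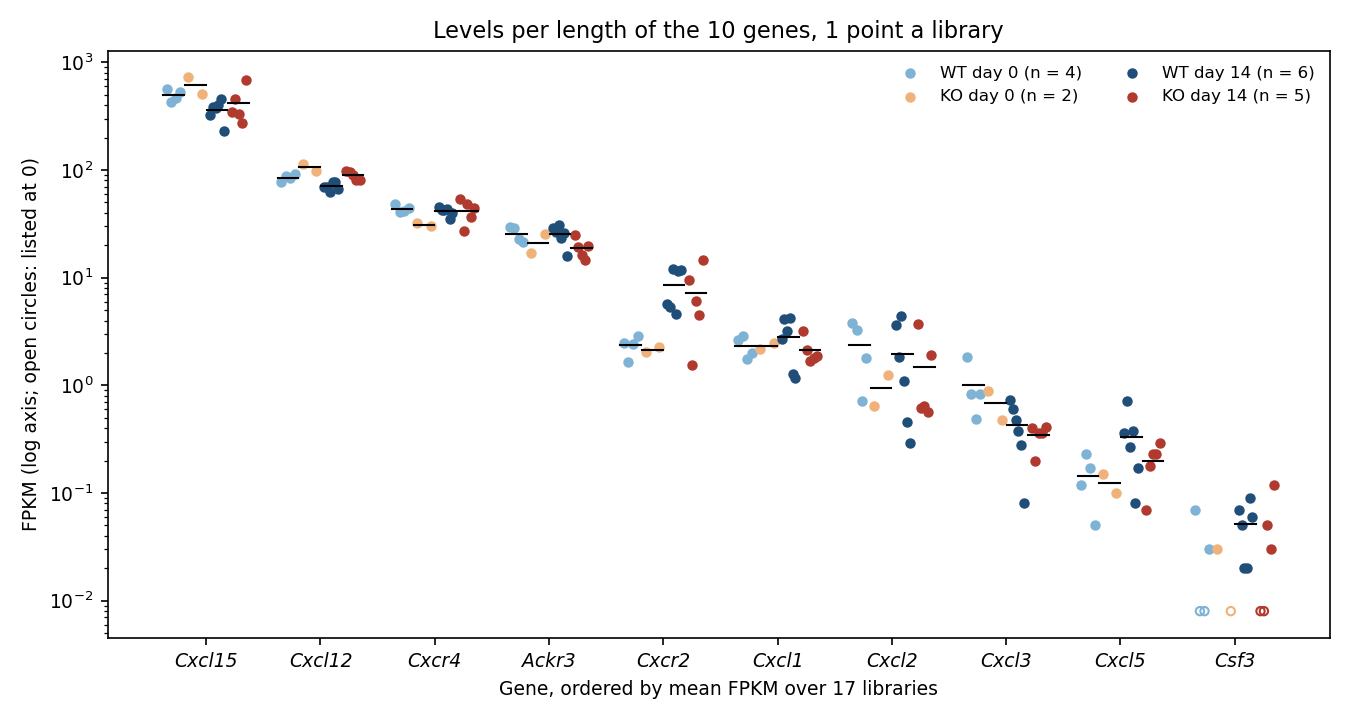
FPKM of the 10 genes on a log axis, 1 point a library, coloured by group, with a bar at the group mean and open circles for Csf3 where it is listed at 0. Groups with such a library have no bar. Cxcl15 lies between 232 and 725 FPKM in every library, and Cxcr2 is the gene with the clearest gap between day 0 and day 14 in WT, where the groups do not overlap.

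Cxcl1, a ligand of Cxcr2 that epithelium and stroma make when inflamed, was present in every library with 28 to 130 counts. It measured 2.18, 2.47, 1.39 and 1.68 CPM in the WT libraries of day 0 and 1.8 and 2.09 CPM in KO. In WT at day 14 it was lowest at 1.02, had its median at 2.5 and was highest at 3.61 CPM. In KO at day 14 it measured 2.63, 1.79, 1.41, 1.48 and 1.58 CPM. The groups overlapped in every comparison, and the fitted log2 differences between KO and WT were 0.00 (SE 0.43) at day 0 and -0.40 (SE 0.30, edgeR adjusted p = 0.745) at day 14.

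Cxcl2 (MIP-2), a rapidly induced ligand of Cxcr2, had the largest standard error of the 9 genes tested in each comparison. It measured 3.34, 3.26, 0.711 and 1.61 CPM in WT at day 0 and 0.847 and 1.3 CPM in KO. In WT at day 14 it spanned 0.238 to 3.92 CPM around a median of 1.56 CPM. In KO at day 14 it measured 3.2, 0.625, 0.658, 0.252 and 1.58 CPM. Single libraries of 1 group differed more than the group means did, and the fitted differences between KO and WT were log2 -1.06 (SE 1.06) at day 0 and -0.62 (SE 0.71) at day 14. Reads shared with Cxcl1 and Cxcl3, which are close relatives, would have been divided between them by estimate in expected counts. FPKM rests on estimated transcript lengths too. Beside 7 rounded counts of Cxcl2 stood 0.29 FPKM in WT day 14 library 6 and 0.57 FPKM in KO day 14 library 4. The cause of this gap was not tested.

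Cxcl3, the third of these inducible ligands, was counted 3 to 59 times a library. It measured 1.67, 0.73, 0.406 and 0.788 CPM in WT at day 0 and 0.741 and 0.41 CPM in KO. The 6 WT libraries of day 14 spanned 0.102 to 0.689 CPM around a median of 0.4 CPM. In KO at day 14 it measured 0.381, 0.167, 0.407, 0.36 and 0.346 CPM. The day 14 libraries lay toward the low end in both genotypes. The log2 difference of day 14 from day 0 was -1.18 in WT (SE 0.41, unadjusted p = 0.00989, edgeR adjusted p = 0.378) and -0.77 in KO (SE 0.57, edgeR adjusted p = 0.714). In KO all libraries of day 14 lay below those of day 0, as in 6.2% of all genes tested, though the nearest libraries stood at 0.407 and 0.41 CPM. In WT the days overlapped. Neither difference passed the threshold of 0.05 on the adjusted p.

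Cxcl5, an ELR ligand of epithelial cells, was near the limit of counting, with 2 to 30 counts a library and more than 10 in 5 of the 17. It measured 0.17, 0.335, 0.237 and 0.0717 CPM in WT at day 0 and 0.212 and 0.149 CPM in KO. At day 14 WT spanned 0.118 to 0.995 CPM around a median of 0.459 CPM, and KO measured 0.0951, 0.25, 0.313, 0.324 and 0.445 CPM. The 3 highest values belonged to WT libraries of day 14, and the groups overlapped. The fitted log2 difference of day 14 from day 0 in WT was 1.18 (SE 0.51, edgeR adjusted p = 0.51).

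Cxcl15 (chr5:90794534-90803067), the abundant epithelial ELR chemokine, was measured with 13062 to 39677 counts. It stood at 1106, 838.7, 911.7 and 1026 CPM in WT at day 0 and at 1400 and 1009 CPM in KO. In WT at day 14 it ran from 443.8 through a median of 751.8 to 898.1 CPM, and in KO it measured 664.5, 909.9, 634.5, 532.6 and 1349 CPM. Of the 6 WT libraries of day 14, 5 lay below every WT library of day 0. The log2 difference between the days was -0.46 in WT (SE 0.24, edgeR adjusted p = 0.584) and -0.56 in KO (SE 0.31, edgeR adjusted p = 0.614), and an exact permutation test of the WT libraries gave an unadjusted p = 0.0238. KO against WT gave log2 0.31 (SE 0.32) at day 0 and 0.21 (SE 0.23) at day 14, with overlapping groups. The alveolar type 2 genes, markers of the epithelium that makes Cxcl15, summed to 20400 to 25600 CPM in WT and 26400 to 30000 CPM in KO at day 0. At day 14 they summed to 20900 to 24200 CPM in WT and 20500 to 25600 CPM in KO, and their part in the Cxcl15 levels was not tested.

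Cxcl12 (chr6:117168535-117181367), the stromal and endothelial ligand of Cxcr4 and Ackr3, was the gene with the smallest standard error in all 4 comparisons. It measured 329.2, 367.5, 368.6 and 394.5 CPM in WT at day 0 and 485.1 and 423.8 CPM in KO. The WT libraries of day 14 ran from 261 through a median of 292.2 to 338.5 CPM, and in KO it measured 401.7, 404.4, 376.1, 343.8 and 330.2 CPM. At day 0 both KO libraries lay above every WT library, as in 8.88% of all genes tested. At day 14 the genotypes overlapped only through KO library 5 and the highest WT library, at 330.2 and 338.5 CPM. The share of all genes with no overlap at day 14 was 0.982%. The KO difference was log2 0.32 at day 0 (SE 0.11, 1.25-fold, 95% interval 1.08 to 1.44, edgeR adjusted p = 0.64). At day 14 it was 0.34 (SE 0.08, 1.26-fold, 1.14 to 1.4, unadjusted p = 0.000293, edgeR adjusted p = 0.116). An exact permutation test gave p = 0.00866 at day 14 and p = 0.0667 at day 0, the smallest that 15 splits allow. DESeq2 called the day 14 difference (adjusted p = 0.012), and edgeR did not. Of all 19557 genes DESeq2 called 109 in this comparison and edgeR 21. In KO, all 5 libraries of day 14 lay below both of day 0 (background 6.2%). Both genotypes stood lower at day 14 than at day 0, by log2 -0.31 in WT (SE 0.08, edgeR adjusted p = 0.227) and -0.29 in KO (SE 0.1, edgeR adjusted p = 0.393). As means over both days and both genotypes, contrasts added after the values were seen, the genotype difference was 0.33 (SE 0.07, edgeR adjusted p = 0.0605), where 0.102% of all genes passed. The day difference was -0.30 (SE 0.06, edgeR adjusted p = 0.0583), where 0.194% passed.

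Cxcr2 (chr1:74153989-74161246), the neutrophil receptor of the ELR ligands, was measured with 107 to 1199 counts. In WT at day 0 it stood at 7.02, 4.66, 6.94 and 8.17 CPM, and in KO at 5.82 and 6.55 CPM. In WT at day 14 it ran from 13.13 through a median of 24.69 to 35.03 CPM. In KO at day 14 it measured 27.08, 4.46, 16.75, 12.79 and 42.33 CPM. All 6 WT libraries of day 14 lay above all 4 of day 0, as in 1.2% of all genes tested, and 3 of them stood together at 33 to 35 CPM. In KO, 4 of the 5 libraries of day 14 lay above both of day 0. The exception was library 2, the lowest of all 17.

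The log2 difference of day 14 from day 0 for Cxcr2 was 1.86 in WT (SE 0.52, 3.64-fold, 95% interval 1.79 to 7.37, unadjusted p = 0.00316, edgeR adjusted p = 0.285). An exact permutation test in WT gave p = 0.00476, the smallest that 210 splits allow. In KO the difference was 1.73 (SE 0.71, 3.33-fold, 1.28 to 8.67, edgeR adjusted p = 0.483), and 1.98 without library 2 (adjusted p = 0.27). An exact permutation test in KO gave p = 0.238, and the groups overlapped. Over 26 alternative fits the log2 value ran from 1.14 to 1.98 in KO and from 1.42 to 1.99 in WT. DESeq2 called the WT difference (adjusted p = 0.0277), and not the KO difference (adjusted p = 0.219). Of all 19557 genes DESeq2 called 110 for the days in WT and 97 in KO, and edgeR 0 in each. KO and WT differed by less than their spread: log2 -0.11 (SE 0.70) at day 0 and -0.24 (SE 0.45) at day 14. The 95% interval of the day 14 fold ran from 0.461 to 1.56. The interaction of genotype and day was log2 -0.13 (SE 0.83, edgeR adjusted p = 0.999). In bulk lung, more neutrophils and more Cxcr2 RNA in each cannot be told apart.

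Cxcr4, the Cxcl12 receptor, is carried by lymphocytes, myeloid cells and endothelium as well as neutrophils. It measured 54.44, 49.7, 50.66 and 52.8 CPM in WT at day 0 and 35.82 and 36.18 CPM in KO. The WT libraries of day 14 lay between 42.46 and 55.76 CPM with a median of 51.05 CPM, and in KO it measured 60.16, 35.47, 54.93, 41.97 and 52.86 CPM. Both KO libraries of day 0 lay below every WT library, as in 9.12% of all genes tested, and the day 14 genotypes overlapped. The KO difference at day 0 was log2 -0.53 (SE 0.15, unadjusted p = 0.00324, edgeR adjusted p = 0.619). It passed in an edgeR fit of these 6 libraries alone (adjusted p = 0.0433), where 13 of 18588 genes passed. At day 14 the difference was -0.03 (SE 0.11), and the interaction was 0.50 (SE 0.19, unadjusted p = 0.0158, edgeR adjusted p = 0.988). In KO the days differed by 0.45 (SE 0.15, edgeR adjusted p = 0.373). The same KO libraries of day 0 were low in lymphoid genes: the summed level of 12 B cell genes was 114 to 213 CPM against 268 to 376 CPM in WT, and 12 of 12 of these genes had a negative log2 value, with none past the threshold. For 12 NK cell genes it was 50.9 to 99.2 CPM against 120 to 250 CPM. Their part in the Cxcr4 result was not tested.

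Ackr3, a receptor that binds and clears Cxcl12, measured 81.49, 82.02, 65.16 and 60.69 CPM in WT at day 0 and 47.71 and 74.08 CPM in KO. WT at day 14 lay between 43.36 and 89.89 CPM with a median of 75.51 CPM, and in KO it measured 68.37, 55.29, 45.44, 41.58 and 57.56 CPM. At day 14, 4 of the 5 KO libraries lay below 5 of the 6 WT libraries, and the groups overlapped. The KO difference at day 14 was log2 -0.42 (SE 0.18, unadjusted p = 0.0359, edgeR adjusted p = 0.519), and at day 0 it was -0.25 (SE 0.26).

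Csf3 had 23 counts over all 17 libraries, none with more than 3. It was at 0 counts in 5 libraries, where a count of 0 allows up to 0.0913 to 0.123 CPM (3 counts, counting error only). A difference in Csf3 between groups was not detectable at this depth. Its receptor Csf3r was measured with ease, at 15.15 to 118 CPM.

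Counted together, 0 of the 9 genes tested passed edgeR's quasi-likelihood test with Benjamini-Hochberg adjustment over all genes in any of the 5 comparisons. For KO against WT the background was 5 genes called at day 0 (0.0256% of 19557) and 21 at day 14 (0.107%). For day 14 against day 0 it was 0 genes in WT and 0 in KO (0% each), and for the interaction of genotype and day 0 as well (0%). At an unadjusted p below 0.05 stood 2 of the 9 genes for KO against WT at day 0 (6.74% of all genes), namely Cxcl12 and Cxcr4. The same held for 2 at day 14 (8.95%), Cxcl12 and Ackr3. For the days it held for 4 in WT (9.06%; Cxcl3, Cxcl5, Cxcl12, Cxcr2) and 3 in KO (9.05%; Cxcl12, Cxcr2, Cxcr4). For the interaction it held for 1 (4.55%; Cxcr4). DESeq2 called 0, 1, 1, 0 and 0 of the 9 genes in these comparisons, beside 26, 109, 110, 97 and 9 of all 19557 genes. With limma-voom 0 of the 9 genes were called in each. The median log2 value of the 9 genes was -0.18 and -0.24 for KO against WT and -0.05 and -0.12 for the days, beside medians of all genes between 0.00 and 0.01. For the interaction it was -0.10. Comparisons that share a group of libraries are not independent of each other.

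**Figure D2:**
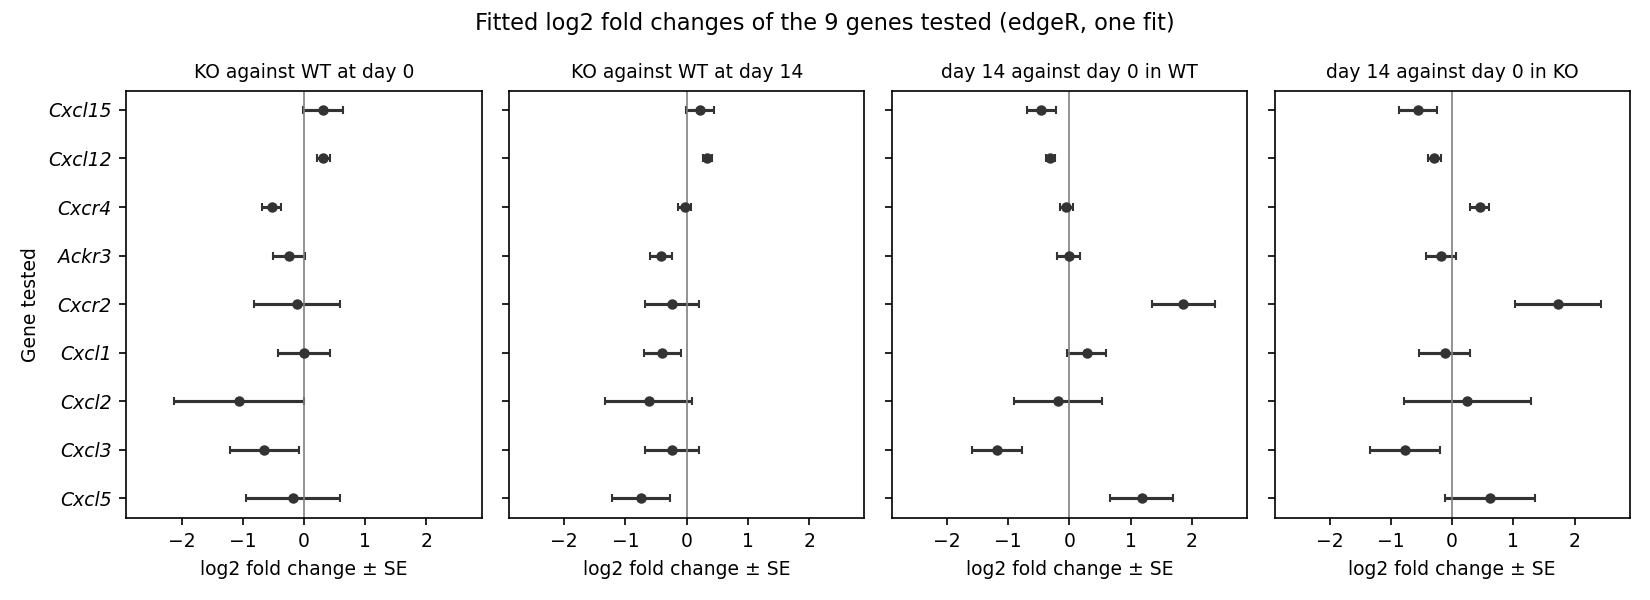
Fitted log2 fold changes with SE for the 9 genes tested in 4 comparisons. In the 2 day comparisons Cxcr2 has the highest values, 1.86 and 1.73, with bars that overlap those of Cxcl5. Cxcl12 has the shortest bars in each panel.

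Which lung signals went with Cxcr2 over the 17 libraries was asked of 32 signals: the other 8 genes tested and 24 marker lists. Genes and lists were chosen with earlier results of these data known. A list score is the mean log2 CPM of those of its genes that were tested, and r is Pearson's. The mature neutrophil list stood out with r = 0.954 (Spearman rho 0.946), at a permutation p = 1e-05, the smallest that 100000 resamples give (adjusted p = 0.00032 over 32). Without the 2 libraries whose Cxcr2 was farthest from the median, KO day 14 libraries 5 and 2, r was 0.947. It was 0.962 in the 10 WT libraries (rho 0.927, permutation adjusted p = 0.00288) and 0.948 in the 11 libraries of day 14 (rho 0.955, adjusted p = 0.00032). In the 7 KO libraries it was 0.946 (exact adjusted p = 0.0317), with rho 0.893 (adjusted p = 0.197). In the 6 libraries of day 0, where Cxcr2 spans 4.66 to 8.17 CPM, r was 0.68 (rho 0.657, exact permutation adjusted p = 0.676). After the group means were subtracted it was 0.922 (permutation within groups, adjusted p = 0.00672).

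None of the chemokines passed in its relation to Cxcr2 over the 17 libraries. Over all 17 libraries Cxcl12 came nearest with r = -0.611 (rho -0.6, permutation p = 0.00942, adjusted p = 0.0603), and within day 14 it had -0.444 and after the group means were subtracted -0.348. Without KO day 14 library 1 it passed (r = -0.704, adjusted p = 0.0402). Cxcl3 had r = -0.415, Cxcl15 -0.358, Cxcl1 -0.164, Cxcl5 0.158 and Cxcl2 -0.0308. After the group means were subtracted these became 0.00717, 0.148, -0.323, -0.351 and 0.11, so Cxcl3 and Cxcl15 kept no negative r. Within WT alone Cxcl3 had -0.691. Without the 2 farthest libraries Cxcl3 had -0.647 (adjusted p = 0.0674), Cxcl15 -0.633 (adjusted p = 0.0719) and Cxcl12 -0.609 (adjusted p = 0.0876). Leaving out KO day 14 library 2 alone took Cxcl3 to -0.639 (adjusted p = 0.0577), and leaving out library 5 alone took Cxcl15 to -0.628 (adjusted p = 0.0734). Cxcr4 had r = 0.425 over all libraries, 0.905 in KO (permutation adjusted p = 0.125) and -0.483 in WT, and the difference between the genotypes was not tested. Ackr3 had r = -0.019.

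Besides mature neutrophils, 3 lists passed over all 17 libraries. They were the granule and neutrophil precursor list (r = 0.668, rho 0.667, adjusted p = 0.0399), the platelet list (0.65, rho 0.664, adjusted p = 0.0399) and, in the negative direction, the fibroblast and matrix list (-0.683, rho -0.642, adjusted p = 0.0399). The granule score rests on 7 of 11 listed genes. Elane, Mpo, Ctsg and Fcnb had too few counts to be tested and are not in it. The platelet list holds the chemokines Ppbp and Pf4. Without the 2 farthest libraries r of the 3 lists was 0.682, 0.541 and -0.64 in the same order. With 15 libraries none of the 3 passed (adjusted p = 0.0674, 0.15 and 0.0719). With group means subtracted their r was 0.517, 0.521 and -0.486, and only the mature neutrophil list passed. The platelet list had r = 0.35 in WT (permutation adjusted p = 0.626) and 0.965 in KO (exact permutation adjusted p = 0.0317). In KO this lay above the 0.946 of the mature neutrophil list, which had the same adjusted p. By rho the platelet list had 0.857 in KO (adjusted p = 0.254). Leaving out single libraries kept the 3 lists under 0.05 in 7, 6 and 7 of 17 runs. The monocyte list had r = 0.431 (adjusted p = 0.281) and the alveolar macrophage list -0.206 (adjusted p = 0.7).

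**Figure D3:**
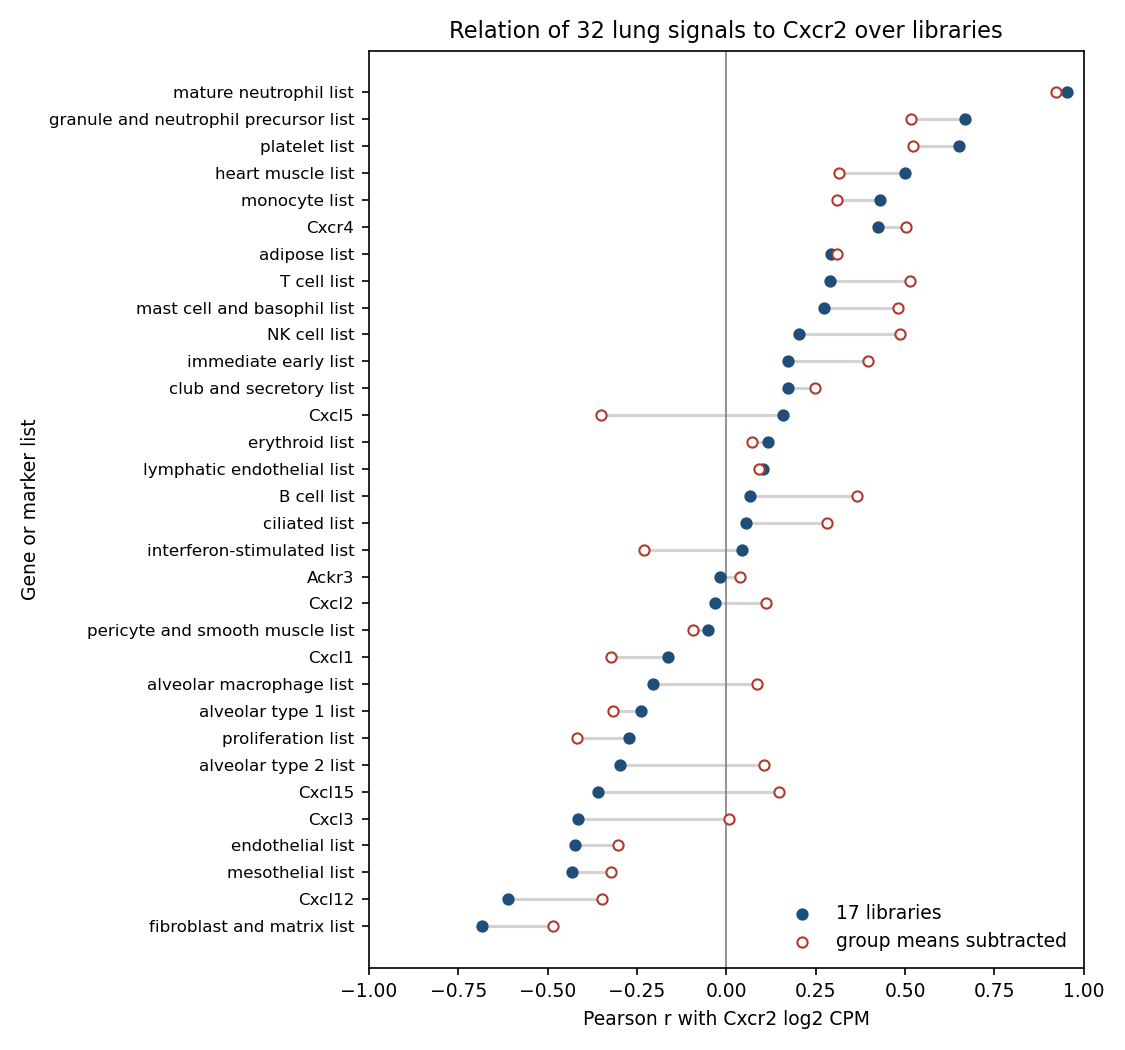
Pearson r of Cxcr2 with 8 genes and 24 marker lists over 17 libraries (filled points) and after subtracting group means (open points). The mature neutrophil list lies at 0.954 and 0.922, apart from all other signals. The filled points of the chemokines among the 8 genes lie between -0.611 and 0.158.

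The genes nearest to Cxcr2 were ranked among 13820 genes with a mean of at least 1 CPM, as a description over 17 libraries. The highest r belonged to Csf3r, the receptor of Csf3 (0.98), S100a9 and S100a8, the calprotectin subunits (0.973 and 0.971), and the lectin receptor Clec4d (0.969). Then came the IL-1 family cytokine Il1f9 (0.966), the receptor Mrgpra2b (0.965), the NOD-like protein Nlrp12 (0.957), the chemokine receptor Ccr1 (0.947), Retnlg (0.937) and the protease Asprv1 (0.935). Of these 10 genes, 7 are in the mature neutrophil list. With group means subtracted, r of the 10 was 0.906 to 0.976. Within the 6 libraries of day 0 it ran from 0.426 (Ccr1) to 0.927 (Clec4d), with 0.612 for Csf3r. The genes with the lowest r over the 17 libraries were the matrix peroxidase Pxdn (-0.836), the cyclophilin Ppic (-0.829), the matrix glycoprotein Sparc (-0.804), Igfbp7 (-0.799) and Rtn1 (-0.798). At day 0 Rtn1 had 0.194 and the others -0.728 to -0.309.

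S100a8 shows how these genes ran beside Cxcr2. It measured 10.77 to 23.54 CPM in WT at day 0, 23.68 to 126.7 CPM in WT at day 14 and 9.12 to 133.2 CPM in KO at day 14. Its lowest and highest libraries of KO day 14 were numbers 2 and 5, as for Cxcr2. Between the days, 19 of the 22 mature neutrophil genes tested had a positive log2 value in each genotype. The median was 1.33 in WT and 1.2 in KO, beside 0.00 and 0.01 over all genes. None passed, and 13 in WT and 4 in KO had a positive value with an unadjusted p below 0.05, which 4.72% and 4.33% of all genes had. For KO against WT, 15 of 22 were negative at day 0 (median -0.11) and 19 of 22 at day 14 (median -0.20), with none past the threshold.

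The most abundant genes of the neutrophil lists differed in how they ran. S100a9 (17.5 to 252 CPM) had log2 1.98 between the days in WT (SE 0.67, edgeR adjusted p = 0.385). Chil3 (116 to 439 CPM), Lcn2 (42 to 124 CPM) and Hdc (69.5 to 154 CPM), which other lung cells express as well, had 0.04, -0.33 and -0.36. Ltf (25.1 to 123 CPM) had 0.65 and Lrg1 (35.5 to 82.8 CPM) 0.38. Other granule genes were lower, Cd177 at 2.61 to 12.5 CPM, Ngp at 0.643 to 12.4 CPM and Camp at 0.215 to 3.55 CPM. Between day 0 and day 14 in WT, mean CPM went from 5.16 to 6.54 for Cd177 and 0.976 to 5.98 for Ngp. For Camp it went from 0.408 to 1.93. In KO the means went from 9.13 to 8.24, 1.72 to 4.68 and 0.562 to 1.74 in the same order. Of the genes of immature neutrophils, Mpo reached at most 0.445 CPM and Elane 0.0833 CPM, with Elane at 0 in 8 libraries. Ctsg and Fcnb reached at most 0.148 CPM. Prtn3 was counted in every library, at 0.255 to 1.43 CPM. Mmp9, a gelatinase of mature cells, had 5.29 to 36.9 CPM, and Ly6g 0 to 1.6 CPM.

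The ratio of Cxcr2 to other neutrophil genes was taken per length, a step added after the values were seen, with 8 exact permutation tests adjusted together. Cxcr2 over Csf3r was 0.194 to 0.241 in WT at day 0 and 0.285 to 0.331 in WT at day 14, with no overlap (log2 difference 0.49, exact p = 0.00476, adjusted p = 0.0381). Without any 1 of the 10 WT libraries the log2 difference was 0.43 to 0.534 and the adjusted p was 0.0635 to 0.0952, since fewer splits raise the smallest p. In KO it was 0.19 and 0.283 at day 0 and 0.256 to 0.329 at day 14 (log2 0.36, exact p = 0.0952, adjusted p = 0.381). Csf3r is also carried by monocytes and macrophages. Cxcr2 over S100a8 showed no such step: 0.038 to 0.0557 at day 0 and 0.0274 to 0.0592 at day 14 in WT (log2 -0.09, exact p = 0.719, adjusted p = 1). Neither ratio separated KO from WT on either day, with log2 differences of -0.06 to 0.07 and adjusted p-values of 1.

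**Figure D4:**
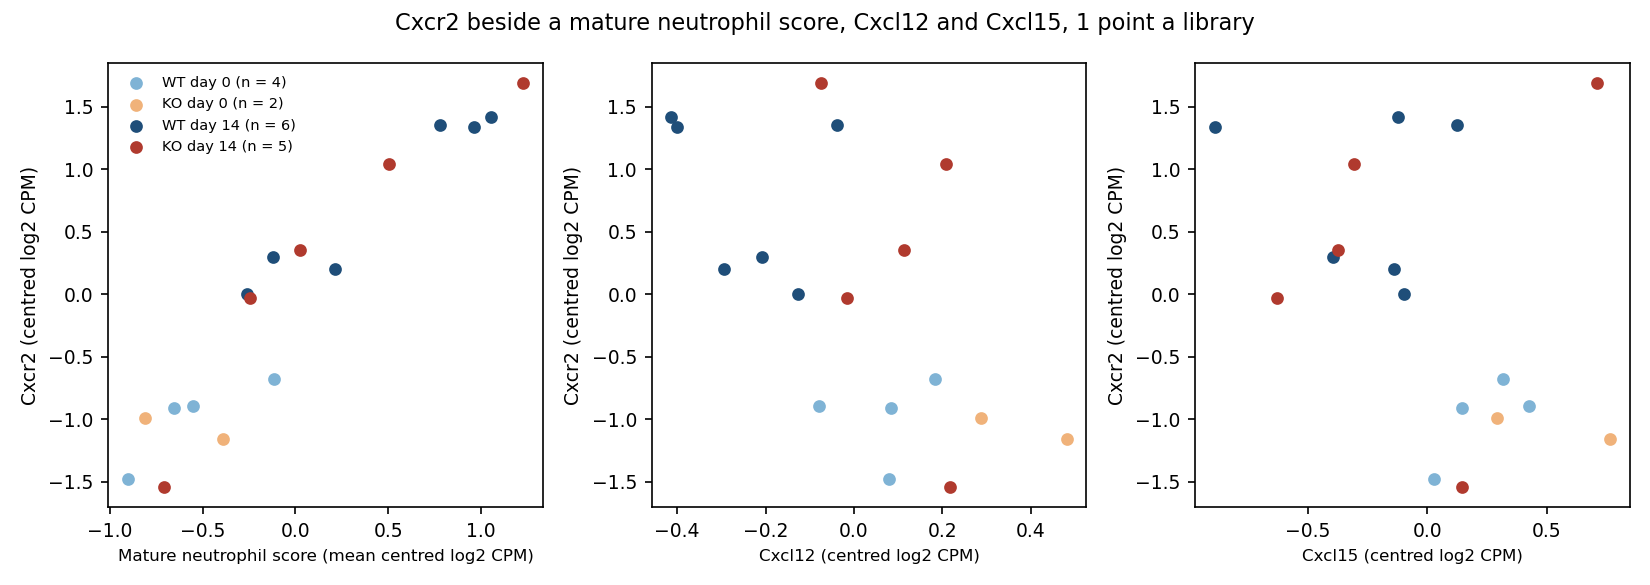
Cxcr2 of each library against the mature neutrophil score, Cxcl12 and Cxcl15, all as log2 CPM minus the mean over libraries. In the first panel the 17 libraries together lie along a rising line (r = 0.954), while the 2 KO day 0 libraries on their own run the other way, and for Cxcl12 (r = -0.611) and Cxcl15 (r = -0.358) the day 0 libraries sit low and mostly to the right.

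The other members were compared with each other and with the marker lists in a family of 252 relations, added after the values were seen. Of those without Cxcr2, 5 had an adjusted p below 0.05. Cxcl2 went with the immediate early list, 12 genes such as Fos, Egr1 and Atf3 that cells switch on within minutes of a stimulus (r = 0.847, rho 0.863, permutation adjusted p = 0.00252, and 0.815 without the 2 farthest libraries). Ackr3 went with the same list (r = 0.807, rho 0.826, adjusted p = 0.0101, and 0.748). Cxcl2 and Ackr3 went with each other (r = 0.802, rho 0.809, adjusted p = 0.012, and 0.669), and so did Cxcl1 and Cxcl2 (r = 0.722, rho 0.745, adjusted p = 0.0487, and 0.875). Cxcl3 went with the alveolar macrophage list by r (0.716, adjusted p = 0.0487) and not by rho (0.62, adjusted p = 0.132), and r was 0.47 without its 2 farthest libraries. With group means subtracted the 5 values were 0.835, 0.78, 0.817, 0.748 and 0.85. Cxcl2 and Cxcl3 had r = 0.658 (adjusted p = 0.0871).

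The summed level of the immediate early genes was 2340 to 4130 CPM in WT and 1040 to 2480 CPM in KO at day 0, and 1260 to 5150 CPM in WT and 816 to 3770 CPM in KO at day 14. All 12 had a negative log2 value for KO against WT on both days, with medians of -0.78 and -0.58, and none passed. Their part in the Cxcl2 and Ackr3 levels was not tested. Cxcr2 had r = 0.174 with this list.

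**Figure D5:**
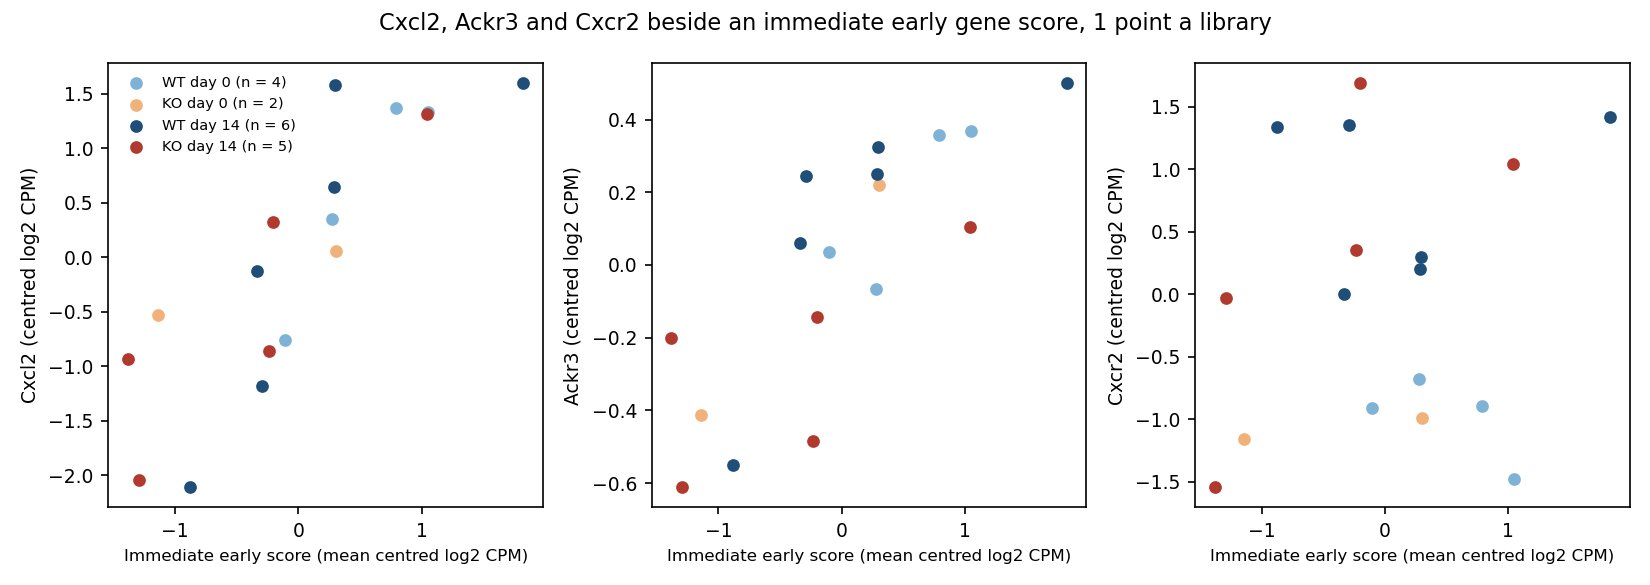
Cxcl2, Ackr3 and Cxcr2 of each library against the score of 12 immediate early genes, as log2 CPM minus the mean over libraries. Cxcl2 (r = 0.847) and Ackr3 (r = 0.807) climb with the score, and Cxcr2 (r = 0.174) does not.

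Genes with the pattern nearest to the other members were ranked in the same way, 3 for each. For Cxcl2 they were Lrp12 (r = 0.905), Api5 (0.869) and the immediate early factor Egr2 (0.868). For Ackr3 they were Tsc22d2 (0.947), Lrrc32 (0.917) and the adhesion receptor Adgrl2 (0.91). For Cxcl1 they were the phosphatase Cdc25b (0.803), the Wnt receptor Fzd1 (0.797) and the endothelial protocadherin Pcdh12 (0.793). For Cxcl3 they were the scavenger receptor Olr1 (0.827), Wdr20 (0.825) and Fbxo34 (0.825). Cxcl15 was nearest to Anxa5 (0.955), Retsat (0.931) and Gstm4 (0.922). Its r with the alveolar type 2 list was 0.678 (adjusted p = 0.0871). Cxcl12 was nearest to Adgrd1 (0.885), Stc2 (0.845) and Mrpl16 (0.843). Cxcr4 was nearest to Clec2i (0.843), the cytokine Clcf1 (0.833) and the sialyltransferase St8sia4 (0.821). Cxcl5, with its low counts, was nearest to Psph (0.869), Atp13a2 (0.861) and Aplf (0.822).

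Around these genes, 93 genes of the pathway were listed in 8 groups, and 90 had enough counts to be tested. None of the 90 passed in any of the 5 comparisons. At an unadjusted p below 0.05 stood 6 and 6 of them for KO against WT at day 0 and day 14 (6.67% each, beside 6.74% and 8.95% of all genes). For the days it was 21 in WT (23.3% beside 9.06%) and 15 in KO (16.7% beside 9.05%). The medians of the 90 genes were 0.10 and 0.15 in the day comparisons and -0.12 and -0.02 for the genotypes.

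The genes named next were picked for the lowest unadjusted p in their groups, so their values are not the typical sizes there. Tnfrsf1a, the main TNF receptor, came nearest with log2 0.24 for day 14 against day 0 in WT (SE 0.04, edgeR adjusted p = 0.0669), and Il1r1, the IL-1 receptor, had 0.17 for KO at day 14 (edgeR adjusted p = 0.39). Of the inducing cytokines, Il1b had 1.63 for the days in KO (SE 0.58, edgeR adjusted p = 0.415) and Csf2 0.65 for KO at day 0. Of the other CXC ligands, Cxcl11 had 2.35 for the days in WT (SE 0.73, edgeR adjusted p = 0.315) at a mean of 0.236 CPM, and Cxcl17, a mucosal chemokine, 0.38 for KO at day 0. Of the CC and CX3C ligands, Ccl2 had 1.17 for the days in WT and Cx3cl1 -0.34 for KO at day 14.

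Among the receptors, Ackr1, which carries chemokines across venules, had log2 0.96 for the days in WT (SE 0.25, edgeR adjusted p = 0.227). Cxcr1, the other receptor of ELR chemokines, had 0.77 for KO at day 14 (SE 0.27, edgeR adjusted p = 0.395) at a mean of 1.27 CPM. All 13 adhesion genes of neutrophil entry had negative values for KO at day 0 with a median of -0.28, led by Itgal at -0.49 and Icam2 at -0.18, and none had an unadjusted p below 0.05. Of the signalling genes, Rgs2 had 0.96 for the days in KO (edgeR adjusted p = 0.274) and Grk2 0.13 for the days in WT. Of the NF-kB feedback genes, Ier3 had 0.60 for the days in KO and Zc3h12a 0.40 in WT. The 11 feedback genes, which are targets of NF-kB, had medians of 0.03 for the days in WT and 0.16 in KO.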

How the data were processed

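Total RNA of mouse lung was sequenced in 17 libraries, made with Qiagen RNeasy and Illumina TruSeq v4 per the labels. Groups follow the genotype and time labels. Deposited were expected counts (RSEM style) of 54146 genes, 1 file a library, and 1 table of FPKM computed by the authors. STAR 2.5.3, RSEM 1.3.0, limma 3.38.3 and build mm10 are listed in the submitters' processing notes; the annotation and filters are not given in the sources used here. Expected counts were rounded. Genes passing filterByExpr (19557) were fitted with TMM scaling in 1 edgeR 4.0.16 quasi-likelihood model of 4 groups, with two-sided p-values adjusted by Benjamini-Hochberg over all genes and a threshold of 0.05. SE is the log2 fold change divided by the root of its F value. The 95% intervals use this SE with the normal quantile, so they are narrower than intervals matched to the F test. Log2 CPM used a prior count of 2. Correlations used two-sided permutation tests with 100000 resamples, single genes exact tests. Alternatives used DESeq2 1.42.0, limma 3.58.1 (voom, and log2 FPKM with a pseudocount of 1 or 0.1), other filters and each library left out. R 4.3.3, pandas 2.3.3 and matplotlib 3.10.9 were used, and the code was tested on simulated data. Symbols and coordinates are from GENCODE on GRCm38, promoters from RefSeq. CPM, means and SE carry 3 or 4 significant digits.

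Named were the 10 members, the 10 genes with the highest and 5 with the lowest r to Cxcr2, the 3 highest for each other member, up to 2 genes of each pathway list by unadjusted p, and abundant or defining neutrophil genes. The members and lists were chosen with earlier results of these data known. Some lists share genes, such as Chil3 (granule and alveolar macrophage lists) and Nr4a1 (monocyte and immediate early lists). No library was a copy of another.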

Additional observations from a re-analysis of the deposited data

Results flagged for a closer look

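In 30 groups of 4 to 6 libraries (10 genes in the 3 groups large enough), 1 library stood apart from its group by Dixon's test at the 95% level. In KO at day 14, Cxcl3 was 0.167 CPM in library 2, from 4 counts, against 0.346 CPM in the nearest other library. The gap was 0.747 of the group's range, above the critical value of 0.71 for 5 libraries. Chance gives about 1 such case in 20 groups. Without this library the log2 difference of Cxcl3 between KO and WT at day 14 was -0.09 (edgeR adjusted p = 0.98), against -0.24 with it. The same library was the lowest of all 17 for Cxcr2.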

How the results depend on the processing

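Of the log2 values of the 9 genes, 1109 kept their sign and side of the threshold under an alternative. The 37 that changed sign had passed in neither, and 3 passed that had not before: Cxcr4 for KO at day 0 in the 2 groups alone, Cxcl12 for KO at day 14 and Cxcr2 for the days in WT under DESeq2, so 1 of the 9 genes was called in each of these settings. Calls among all genes moved more. For KO against WT at day 0 they were 5, and 26 with DESeq2, 3 with limma-voom, 17 on log2(FPKM + 1) with no filter, 13 in the 2 groups alone, 20 as a mean over both days, and 2 to 7 with single libraries left out. At day 14 they were 21, and 109 with DESeq2 and 15 to 27 with single libraries left out. For the days in WT they were 0, and 110 with DESeq2, 1 with limma-voom, 3 with DESeq2 size factors, 5 with no filter, 1 on log2(FPKM + 0.1), 38 as a mean over both genotypes, and 0 to 22 with single libraries left out, 22 without WT day 14 library 5. For the days in KO they were 0, and 97 with DESeq2, 1, 4 and 26 on log2(FPKM + 1), log2(FPKM + 0.1) and log2(FPKM + 1) with no filter, 2 in the 2 groups alone, 38 as a mean over both genotypes, and 0 to 12 with single libraries left out, 12 without KO day 14 library 2. For the difference of the KO effects they were 0, and 9 with DESeq2, 1 with a mean of at least 1 CPM, 3, 3 and 12 on the FPKM scales in the same order, and 0 to 1 with single libraries left out; the 2 groups alone cannot give this value. The cause of these shifts was not tested.

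Of the 32 relations to Cxcr2, 4 passed. The number was 1 without the 2 farthest libraries, 1 in WT, 2 in KO, 1 at day 14, 0 at day 0, 1 with group means subtracted and 1 to 4 with single libraries left out. For the mature neutrophil list r stayed between 0.947 and 0.961 with single libraries left out and missed the threshold at day 0 (0.68). At day 0 the granule list had -0.0391 and the platelet list -0.626, against positive values over all libraries. The ratio of Cxcr2 to Csf3r between the days in WT missed the threshold in each of the 10 runs that left out a WT library, where fewer splits raise the smallest p. No paired analysis was possible because the labels give no replicate numbers shared between groups. With 2 KO libraries at day 0, no exact test of the genotypes on that day can reach 0.05. Counts of Cxcl5 and Csf3 limit what their values can show.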

Other observations

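The ratio of Cxcr4 to Cxcr2 was taken per length. It was 15.6 to 24.5 in WT and 13.5 and 15.6 in KO at day 0, and 3.03 to 9.34 in WT and 3.01 to 17.7 in KO at day 14. The highest value of KO at day 14 lay within the day 0 range, and the WT libraries of the 2 days did not overlap. Cxcr2 alone did not overlap between these WT groups either, as in 1.2% of all genes tested. Cxcl12 over Cxcr4 was 1.62 to 2.16 in WT and 3.25 and 3.56 in KO at day 0, and 1.47 to 2.24 in WT and 1.82 to 3.54 in KO at day 14. These ratios were added after the values were seen and were not tested.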
